A study of Mus musculus with 19 samples.

Results

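Podocytes are the epithelial cells that wrap the capillaries of the glomerulus, the filtering unit of the kidney. Their interlocking foot processes are bridged by the slit diaphragm, a junction built around nephrin and held to the actin cytoskeleton from inside the cell. A few transcription factors and cell cycle inhibitors keep the mature podocyte in its differentiated, non-dividing state, and loss of these cells is a known route to protein in the urine. The 8 genes described here were chosen as markers of this cell and its slit diaphragm: Nphs1, Podxl, Wt1, Synpo, Ptpro, Cdkn1c, Clic5 and Plce1. They were taken by symbol from a count table of 26506 genes, and all 8 were in it.

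RNA from whole kidney and liver of male mice was compared between animals lacking macroH2A1.1, one of the splice products of H2afy, a gene for a histone variant, and wild-type animals. The homozygous knockout (mH2A1.1_KO) had been made by Cre treatment of zygotes carrying a floxed exon 6b, so the exon is absent from every cell, and both genotypes came from matings of heterozygotes on a C57BL/6J background. Of the kidney libraries, 5 were labelled knockout and 5 wild type. Livers numbered 5 and 4, and a wild-type liver numbered 23 was not analysed here. Ages were not given in the sources used here, nor was which animals received the standard and which the ketogenic diet. The series concerns kidney abnormalities after loss of macroH2A1.1, and the comparison asks whether podocyte genes differ in the knockout kidney, with the liver as contrast.

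Total counts ran from 25919138 to 35131720 per kidney library and from 26084473 to 34806035 per liver library. The tissue labels matched their defining genes, with albumin (Alb) between 56646 and 68908 CPM (counts scaled to library size) in livers and no higher than 40.9 CPM in kidneys, and uromodulin (Umod) between 1972 and 3242 CPM in kidneys and no higher than 0.0303 CPM in livers, by library totals. H2afy was lower in every knockout library than in every wild-type library of its tissue, but the library labelled wild-type 24 lay nearest to the knockouts, with 65.6 CPM in kidney and 53.5 CPM in liver. The count covers the whole gene and does not check the isoform. The calls for the podocyte genes, and their estimates in kidney, are therefore also given without that library. Other genes and the lists are given only with it. Libraries are called by the number in their titles.

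Per kilobase of exon, which allows levels to be compared between genes, Podxl was the highest of the 8 genes in kidney, with 36.4 ± 2.77 CPM per kb over the 10 kidneys (SD). Podxl encodes podocalyxin, the negatively charged sialomucin that coats the foot processes. Cdkn1c followed with 11.8 ± 2.21 and Clic5 with 10.8 ± 0.967 CPM per kb, and the ranges of these neighbours overlapped. Synpo, at 7.69 ± 0.556, and Nphs1, at 3.86 ± 0.417 CPM per kb, were each separated from their neighbours in this order. Wt1, at 2.18 ± 0.216, and Ptpro, at 1.84 ± 0.206 CPM per kb, overlapped, and Plce1 was the lowest at 0.401 ± 0.0521 CPM per kb. In bulk tissue, fewer podocytes and less RNA per podocyte cannot be told apart.

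None of the 8 podocyte genes passed the test of knockout against wild-type kidneys (edgeR quasi-likelihood, Benjamini-Hochberg adjusted over 17269 genes, threshold 0.05). The adjusted p was 0.9995 for each of them. Over all genes tested, 0.00579% passed. At an unadjusted p under 0.05 there were 0 of the 8 podocyte genes and 2.95% of all genes, and DESeq2 and limma voom also called 0 of the 8. Relative to wild type, the estimated difference lay between 5.18% and 16.2% for 7 genes and at -0.497% for Clic5. The groups overlapped for all 8, and groups that did not overlap were found for 0.562% of all genes. A log2 fold change above 0 was found for 52.2% of all genes tested. The median log2 fold change was 0.10 over the 8 genes and 0.01 over all genes. Because these genes share cells and libraries, their common sign is not 7 separate observations.

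The slit diaphragm itself was represented by Nphs1 (ENSMUSG00000006649, chromosome 7, 30458315 to 30487223, plus strand, GRCm38). It encodes nephrin, whose extracellular domains span the gap between neighbouring foot processes. Knockout kidneys 13, 14, 15, 16 and 18 held 29.6, 24.7, 22.2, 29.0 and 27.8 CPM of Nphs1. Wild-type kidneys 19, 20, 22, 23 and 24 held 24.7, 24.2, 27.7, 22.9 and 22.4 CPM. The lowest value of all was a knockout kidney, number 15, while the 2 highest were the knockout kidneys 13 and 16. The log2 fold change was 0.13 (SE 0.10), and its 95% interval, given here and below as a percent difference from wild type, ran from -5.45% to 26.4%. Knockout kidneys 13, 16 and 18 were above every wild type, the last at 27.78 against 27.68 CPM, and knockout kidney 15 was below every wild type.

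Podxl (ENSMUSG00000025608, chromosome 6, 31519488 to 31563981, minus strand) held 228, 196, 188, 206 and 212 CPM in the knockout kidneys and 212, 196, 193, 192 and 174 CPM in wild-type kidneys 19, 20, 24, 22 and 23. Knockout kidney 13 was above all wild types, and wild-type kidney 23 below all knockouts. The log2 fold change was 0.09 (SE 0.08, 95% interval -5.26% to 20.0%). Podocalyxin is also made by endothelial cells, so that Podxl in a whole kidney is not a count of podocytes alone. The summed level of 12 endothelial markers overlapped between the genotypes, at 712 to 821 CPM in knockout and 717 to 772 CPM in wild-type kidneys.

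Ptpro (ENSMUSG00000030223, chromosome 6, 137252319 to 137463233, plus strand) encodes GLEPP1, a receptor tyrosine phosphatase of the podocyte's apical membrane. It reached 14.9, 13.3, 12.0, 10.9 and 12.7 CPM in knockout kidneys and 13.5, 12.99, 11.6, 10.2 and 11.5 CPM in wild-type kidneys. Both groups covered nearly the same range, with a log2 fold change of 0.10 (SE 0.11, 95% interval -9.39% to 26.3%).

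Synpo, on chromosome 18 (ENSMUSG00000043079), encodes synaptopodin, an actin-binding protein that bundles filaments in the foot processes. Its level was 78.8, 75.4, 69.9, 74.4 and 82.6 CPM in knockout kidneys and 74.3, 72.9, 72.4, 68.3 and 63.8 CPM in wild-type kidneys. The 4 highest values belonged to knockouts, the fourth at 74.40 CPM against 74.27 CPM in the highest wild type, and the 2 lowest to wild-type kidneys 23 and 24, but knockout kidney 15, at 69.9 CPM, lay below wild types 19, 20 and 22. Synpo had the smallest SE of the 8 genes, with a log2 fold change of 0.12 (SE 0.08, 95% interval -3.16% to 21.3%).

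Clic5 (ENSMUSG00000023959, chromosome 17, 44188584 to 44280172, plus strand) encodes an intracellular chloride channel family protein that links podocalyxin to ezrin at the foot process membrane. It was the gene with the least difference between genotypes. Knockout kidneys held 114, 92.1, 88.6, 95.2 and 84.3 CPM and wild-type kidneys 89.9, 93.4, 97.6, 92.3 and 104 CPM. The knockouts held both the highest and the lowest kidney. The log2 fold change was -0.01 (SE 0.09, 95% interval -12.6% to 13.3%), and its sign changed with library totals as the scaling (0.02) and without the library labelled wild-type 24 (0.02).

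Plce1 (ENSMUSG00000024998, chromosome 19, 38481109 to 38785030, plus strand), a phospholipase C whose loss causes a nephrotic syndrome in humans, was the scarcest of the 8 genes with 146 to 249 counts per kidney. Its levels were 7.88, 6.72, 5.34, 7.54 and 5.89 CPM in knockouts and 5.79, 6.37, 6.16, 6.90 and 5.64 CPM in wild types. The knockouts spanned the whole wild-type range and went beyond it at both ends (log2 fold change 0.11, SE 0.13, 95% interval -11.2% to 31.6%).

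Of the regulators of podocyte identity, Wt1 (ENSMUSG00000016458, chromosome 2, 105126529 to 105173616, plus strand) encodes the zinc finger transcription factor that activates many podocyte genes. Knockout kidneys held 15.2, 12.8, 12.4, 14.9 and 14.04 CPM and wild-type kidneys 12.6, 12.9, 15.02, 14.2 and 11.2 CPM, so that the groups covered almost one range. The log2 fold change was 0.07 (SE 0.11, 95% interval -10.1% to 23.03%). It came to 0.02 without the library labelled wild-type 24, which was the lowest for Wt1. Wt1 is also expressed by mesothelium. The summed level of 6 mesothelial markers was 133 to 156 CPM in knockout and 136 to 169 CPM in wild-type kidneys. Most of this sum was Gpm6a, averaging 132 CPM in knockouts and 135 CPM in wild types, so it says little about the other mesothelial markers.

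Cdkn1c (ENSMUSG00000037664, chromosome 7, 143458339 to 143461050, minus strand) encodes p57, an imprinted inhibitor of cyclin-dependent kinases that marks the non-dividing podocyte. It had the largest estimated difference of the 8 genes and also the highest coefficient of variation in the wild-type kidneys. Knockout kidneys held 19.9, 23.4, 28.04, 25.4 and 32.8 CPM and wild-type kidneys 27.3, 25.1, 20.7, 19.1 and 19.2 CPM. Kidney 18 was the highest, but knockout kidney 13 lay below wild types 19, 20 and 22. The log2 fold change was 0.22 (SE 0.14, edgeR unadjusted p = 0.134, adjusted p = 0.9995), with a 95% interval from -5.04% to 42.2%, and Cdkn1c ranked 1633 of 17269 genes by p. Its imprinted neighbours on chromosome 7 did not pass either: of 7 tested, 3 had a higher and 4 a lower estimate, among them Phlda2, a growth-restraining gene (-0.29), and the potassium channel gene Kcnq1 (-0.09).

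**Figure D1:**
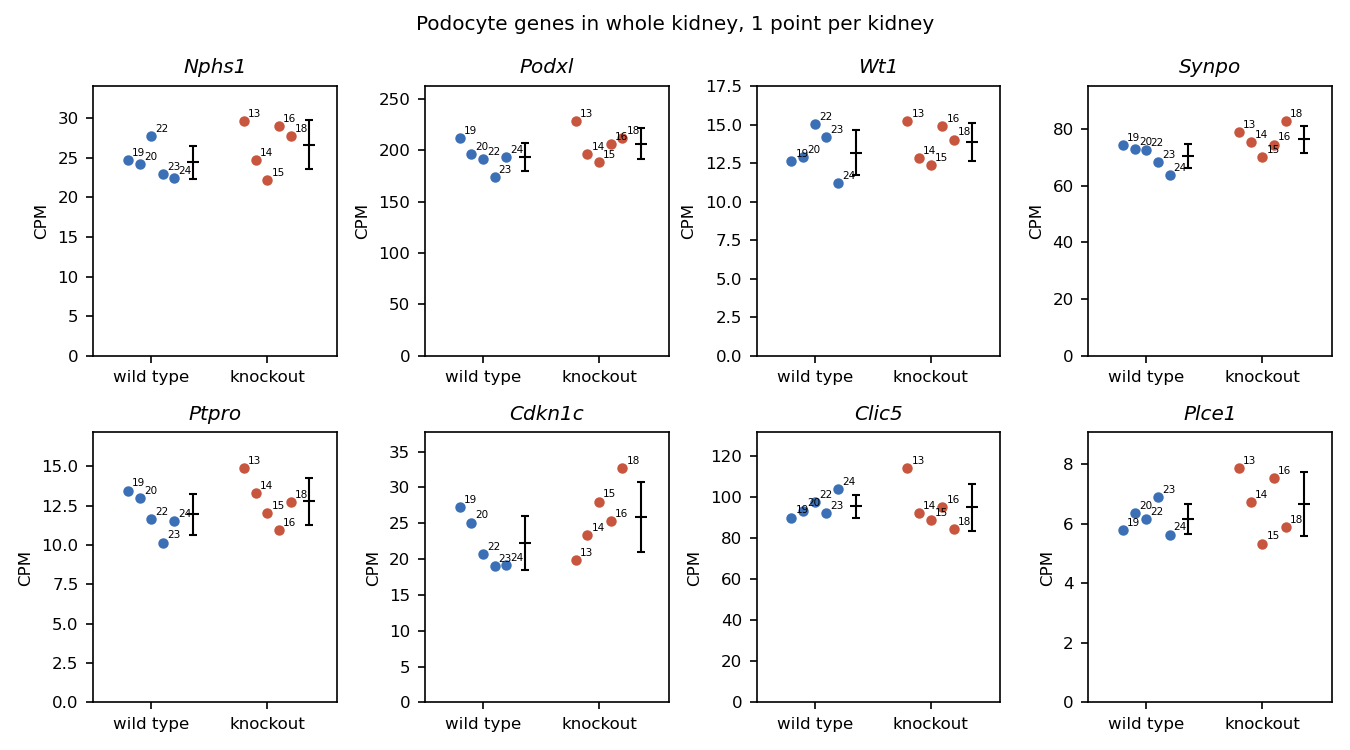
Level (CPM, vertical axes from 0) of the 8 podocyte genes in wild-type (blue) and knockout (red) kidneys, 1 point per kidney with its number, bars at mean ± SD (n = 5 per group). The groups overlap in every panel, and Cdkn1c, from 19.1 to 32.8 CPM, has the widest spread relative to its mean.

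The precision of these values set what could be seen. The coefficient of variation between kidneys of a group ran from 5.67% to 16.8% over the 8 genes in wild types and from 6.31% to 18.8% in knockouts. The lowest bound of the 95% intervals in kidney was -12.6%, for Clic5, and the highest was 42.2%, for Cdkn1c. These bounds belong to single genes and are not a limit of detection. Without the library labelled wild-type 24, 0 of the 8 genes passed and the log2 fold changes ran from 0.02 to 0.17. Without kidneys 16 and 24 together they ran from -0.01, for Wt1, to 0.17, for Cdkn1c, and again 0 passed. With 1 library left out, the estimates stayed above 0 for each gene but Clic5. They fell as low as 0.02 for Wt1, 0.03 for Ptpro and 0.04 for Plce1, and rose as high as 0.30 for Cdkn1c.

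**Figure D2:**
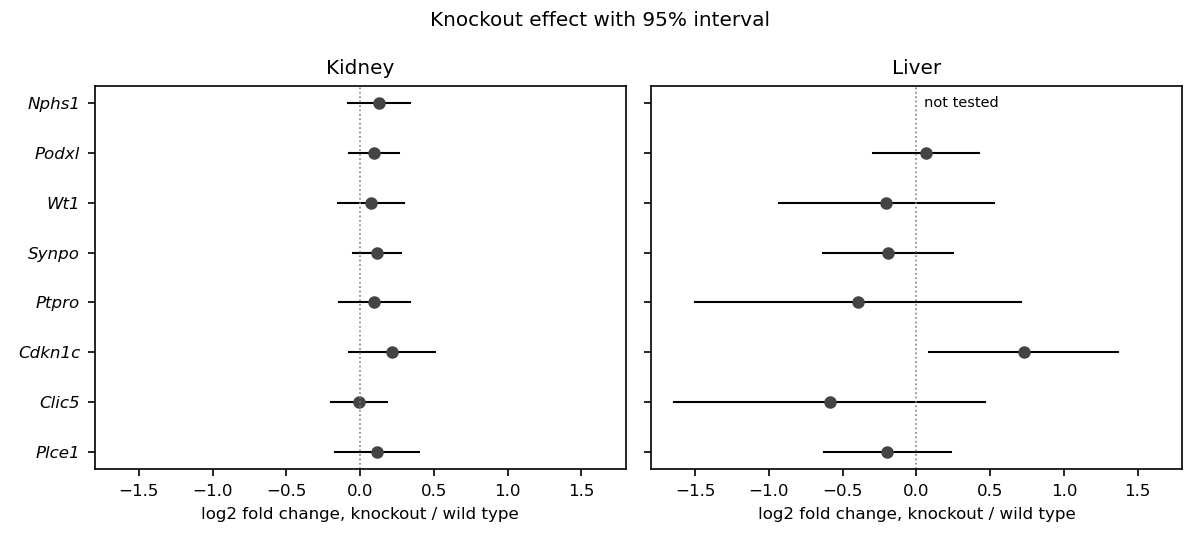
Log2 fold change of knockout over wild type for each podocyte gene in kidney (left) and liver (right), with its 95% interval from the edgeR fit. All 8 intervals in kidney include 0, the liver intervals are wider, and in liver only that of Cdkn1c lies above 0 before adjustment (unadjusted p = 0.029, adjusted p = 0.9998); Nphs1 was too low in liver to test.

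The other genes of the podocyte were read from 5 lists with 72 genes, of which 71 were in the table and 69 passed the filter on low counts in kidney. Of these 69, 36 had a higher and 33 a lower estimate in knockout kidneys, and 0 passed the test in either direction. Among 17 partners of the slit diaphragm, 8 were higher and 9 lower. The adaptor gene Nck2, which links phosphorylated nephrin to actin, had the smallest p of this list. Its knockout kidneys, at 25.2 to 27.7 CPM, lay below all wild types, at 28.4 to 29.9 CPM (log2 fold change -0.15, SE 0.07, edgeR adjusted p = 0.9995). Groups that did not overlap in this direction were found for 0.272% of all genes. Magi2, a scaffold protein gene of the slit diaphragm, differed by 0.13 (adjusted p = 0.9995 in edgeR).

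Of 20 genes of the podocyte cytoskeleton and adhesion, 8 had a higher and 12 a lower estimate, with a median log2 fold change of -0.03. The 2 with the smallest p were Ddn, which encodes dendrin (0.24, SE 0.14), and Slc9a3r2, a scaffold that ties podocalyxin to ezrin (0.13, SE 0.09), both with an edgeR adjusted p of 0.9995. Of 8 transcription factors, 6 had a higher and 2 a lower estimate. Foxc2 differed by 0.19, Dach1 by 0.08 and Lmx1b by -0.14, all with an edgeR adjusted p of 0.9995. The other 12 podocyte-enriched transcripts were split evenly, 6 higher and 6 lower, with Rasl11a (-0.26) and Tdrd5 (-0.20) at the smallest p. Of 12 genes of the glomerular basement membrane, on which the foot processes stand, 8 were higher and 4 lower, and the 2 with the smallest p were Nid1 (-0.15) and Col4a1 (-0.15). The median of the 8 podocyte genes (0.10) was above the medians of these 5 lists, which ran from -0.03 to 0.05. It was below the medians for genes linked to podocyte injury (0.20) and for hepatocyte markers (0.21) in the same kidneys. Among the hepatocyte markers, Alb (0.93) held 41.4 CPM in knockout kidney 13 and 4.86 to 7.15 CPM in the other knockouts. The part of kidney 13 in the hepatocyte median was not tested.

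Genes linked to podocyte injury were the list with the widest range in kidney, from -0.57 to 0.41, and 0 of 8 passed. Ctsl, the protease cathepsin L, averaged 312 ± 85.6 CPM over the 5 knockout kidneys and 464 ± 38.5 CPM over the 5 wild-type kidneys (SD), with no overlap between the groups (log2 fold change -0.57, SE 0.16, edgeR unadjusted p = 0.00378, adjusted p = 0.9995). Plaur, the urokinase receptor gene, differed by -0.35 (unadjusted p = 0.0282) and Cdkn1a, another inhibitor of cyclin-dependent kinases, by 0.28 (unadjusted p = 0.0455), and each had an edgeR adjusted p of 0.9995. All 3 are expressed outside podocytes too. Des, the intermediate filament gene used as a marker of podocyte injury, differed by 0.13 (edgeR unadjusted p = 0.343, adjusted p = 0.9995).

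None of the markers of neighbouring cells passed the test in kidney (edgeR), though their summed levels did not all cover one range. Slc34a1, the phosphate transporter gene of the proximal tubule, lay at 4722 to 5053 CPM in knockouts and 5517 to 6357 CPM in wild types. These groups did not overlap (log2 fold change -0.25, SE 0.08, edgeR unadjusted p = 0.0071, adjusted p = 0.9995). Of the 9 proximal tubule markers, 3 had a higher estimate in knockout kidneys, up to 0.31, and 6 a lower one. The summed level of 9 proximal tubule markers was 34026 to 40686 CPM in knockout and 39109 to 41833 CPM in wild-type kidneys. Most of this sum was Kap, averaging 22982 CPM in knockouts and 25139 CPM in wild types. Sums of 5 markers of the parietal epithelium were 242 to 273 and 271 to 293 CPM. Most of this level was Lad1, averaging 203 CPM in knockouts and 221 CPM in wild types. Of these 5 parietal markers, 2 had a higher and 3 a lower estimate. For 6 mesangial markers the ranges were 160 to 183 and 160 to 192 CPM. The 8 podocyte genes summed to 427 to 509 CPM in knockout and 408 to 460 CPM in wild-type kidneys. The part of these other cells in the podocyte values was not tested.

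**Figure D3:**
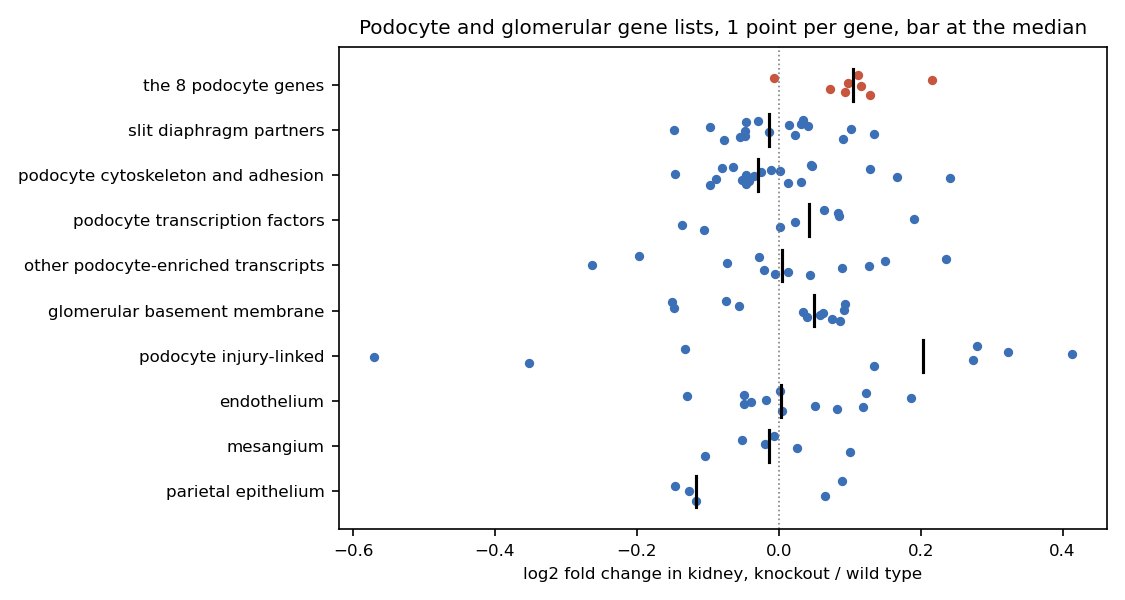
Log2 fold change in kidney of each tested gene (1 point per gene) of the 8 podocyte genes (red) and of 9 lists of podocyte, glomerular and neighbouring cell genes (blue), with a bar at each median. The podocyte genes lie between -0.01 and 0.22, and the injury-linked list spreads from -0.57 to 0.41.

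Kidneys of 1 genotype also differed among themselves in the 8 genes. Centred on the genotype mean on a log2 CPM scale, knockout kidney 13 was above its group mean in 7 of the 8 genes and knockout kidney 15 in 1. Among wild types, kidney 24 was above its mean in 1 gene and kidney 23 in 2. Kidney 13 also stood apart in Alb, at 41.4 CPM against 4.86 to 9.49 CPM in the other 9 kidneys, and the part of this in its podocyte values was not tested. Cdkn1c went the other way in this kidney, at -0.36 below its group mean.

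Of the 28 pairs among the 8 genes, 22 had a positive Pearson r over the 10 kidneys, with a median of 0.26. After adjustment, 0 of 28 pairs passed an exact two-sided permutation test within genotype, and 5 had an unadjusted p under 0.05. Nphs1 and Wt1 had the highest coefficient (r = 0.80, exact permutation p = 0.00806, adjusted p = 0.119). Their Spearman rho was 0.85 (exact permutation p = 0.00521, adjusted p = 0.146), and r was 0.69 without the 2 kidneys farthest from the median of Nphs1. Cdkn1c and Clic5 had the lowest, r = -0.81 (exact permutation p = 0.00847, adjusted p = 0.119) with a rho of -0.68 (exact permutation p = 0.0455, adjusted p = 0.255). Their r was -0.73 without the 2 kidneys farthest from the median of Cdkn1c. Podxl and Ptpro reached r = 0.75 (exact permutation p = 0.0219, adjusted p = 0.204) and a rho of 0.76 (exact permutation p = 0.0238, adjusted p = 0.255). Their r fell to 0.49 without the 2 kidneys farthest from the median of Podxl. Without wild-type kidney 23, 2 of the 28 pairs passed the adjusted exact permutation test, where 0 passed with all 10 kidneys.

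The spread of each gene was also compared before and after removing what the others shared, as a description. Subtracting the mean of the other 7 genes lowered the SD between kidneys, on the log2 scale, from 0.15 to 0.10 for Nphs1, from 0.10 to 0.07 for Podxl and from 0.09 to 0.05 for Synpo. For Cdkn1c it raised the SD from 0.25 to 0.30 and for Clic5 from 0.13 to 0.15. Nphs1, Podxl and Synpo correlated with the mean of the other 7 at r = 0.80, 0.77 and 0.81, Clic5 at 0.09 and Cdkn1c at -0.28 over the 10 kidneys. All values in a kidney share its library and depth, so no test is attached to these coefficients.

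**Figure D4:**
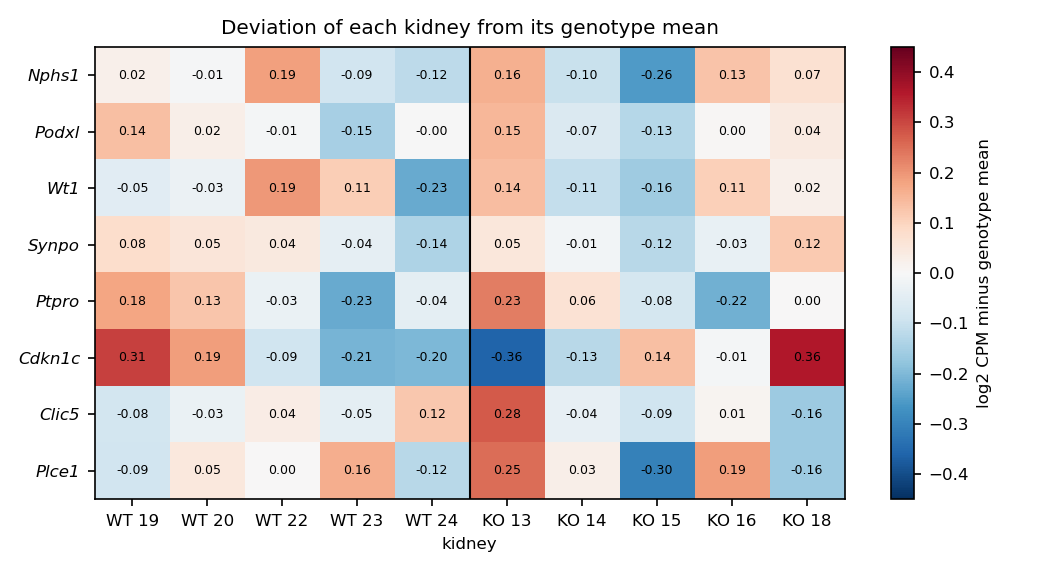
Deviation of each kidney from its genotype mean in log2 CPM, for the 8 podocyte genes (rows) and the 5 wild-type and 5 knockout kidneys (columns), red above and blue below the mean. Kidney 13 is high in 7 genes and low in Cdkn1c (-0.36), and kidney 15 is low in all but Cdkn1c.

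The genes whose pattern over the 10 kidneys was most like the mean of the 8, by Pearson r on the same centred scale, were Lars (0.91), Cyp2j15-ps (0.91), Ap5b1 (0.91), Col8a1 (0.90), Prag1 (0.90), Myc (0.88), Bbs9 (0.88), Gm7463 (0.88), Ankrd35 (0.88) and Golga2 (0.87). None of these 10 was on a podocyte list. Cyp2j15-ps, Gm7463 and Ankrd35 were scarce, at means of 0.367, 0.311 and 0.517 CPM over the kidneys. Of the 69 genes on the 5 podocyte lists, 17 (24.6%) had an r above 0.5, among them Foxd1 (0.81), Lmx1b (0.75) and Crb2 (0.71), which were named after their values were seen. Over all 17261 other genes of the kidney fit the share was 7.51%. Such likeness was not particular to podocyte lists: an r above 0.5 was also found for 3 of 6 hepatocyte markers (list median 0.41) and 3 of 9 proximal tubule markers (list median 0.42). Of these hepatocyte markers, Alb (r = 0.70) was highest in kidney 13, at 41.4 CPM. That kidney also had the highest mean of the podocyte genes (0.11 above its group), and its part in these coefficients was not tested. The podocyte lists had medians from 0.10, for the cytoskeleton, to 0.46, for the basement membrane, with 0.33 for the slit diaphragm partners.

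In liver, which has no podocytes, the 8 genes ranged from no signal to the kidney level. Nphs1 had 0 counts in 8 of 9 livers and 1 count in knockout liver 15. Wild-type kidneys held 24.2 CPM of Nphs1 by library totals, at least 244-fold the level that 3 counts per wild-type liver library would give. By library totals, wild-type kidneys exceeded wild-type livers 73.1-fold for Clic5, 28.1-fold for Podxl, 22.2-fold for Cdkn1c, 21.1-fold for Wt1, 14.6-fold for Ptpro and 12.8-fold for Synpo. The genes were chosen as podocyte markers, so these differences follow from the choice.

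Plce1 was the exception. Its wild-type livers held 6.49, 4.18, 6.02 and 4.60 CPM and its wild-type kidneys 5.64 to 6.90 CPM, each scaled within its tissue. With TMM scaling over both tissues it was higher in wild-type liver (log2 fold change 0.69, SE 0.17, edgeR adjusted p = 0.00117). With library totals the estimate was lower in liver and did not pass (-0.20, edgeR adjusted p = 0.323), and the median over all genes moved from -0.17 to -1.05 between these scalings. A direction for Plce1 between tissues therefore depended on the scaling. The other 7 genes passed under both scalings, where 71.9% of all genes passed in the TMM fit. Like the fold differences, these 7 passes follow from the choice of podocyte markers. Nphs1 had 0 counts in every wild-type liver, so its pass rests on kidney counts alone.

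**Figure D5:**
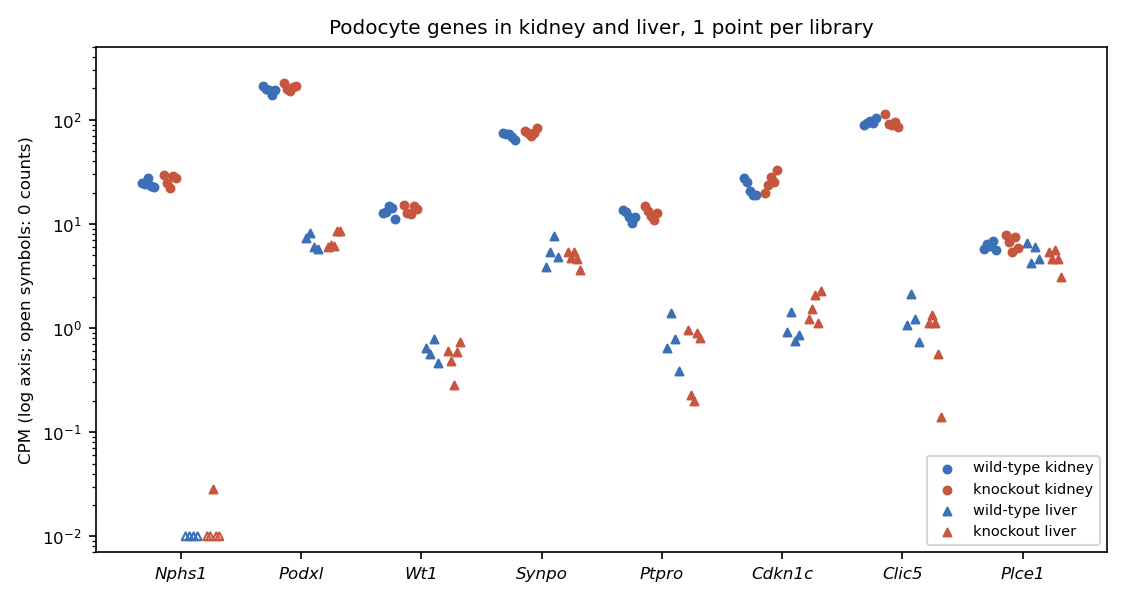
Level (CPM, log axis, scaled within each tissue) of the 8 podocyte genes in each kidney (circles) and liver (triangles), wild type in blue and knockout in red, with open symbols for libraries with 0 counts. Kidney lies above liver for every gene but Plce1, and Nphs1 was counted once in 1 of 9 livers.

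Between knockout and wild-type livers, 0 of the 7 podocyte genes tested passed (edgeR, adjusted over 14591 genes, of which 0% passed), and their adjusted p was 0.9998 each. DESeq2 and limma voom also called 0 of the 7. At an unadjusted p under 0.05 there was 1 of the 7 genes, Cdkn1c, and 4.17% of all genes. Cdkn1c held 1.23, 1.52, 2.09, 1.12 and 2.25 CPM in knockout livers 13, 14, 15, 16 and 18, and 0.915, 1.44, 0.756 and 0.851 CPM in wild-type livers 19, 20, 22 and 24. The wild-type liver 20 lay above the knockouts 13 and 16, and the values rested on 22 to 73 counts per liver. The log2 fold change was 0.73 (SE 0.30, edgeR unadjusted p = 0.029), where it was 0.22 in kidney. With 1 library left out, the liver estimate for Cdkn1c lay between 0.60 and 0.96. Its imprinted neighbour Phlda2 differed by -1.32 in liver (edgeR unadjusted p = 0.0131, adjusted p = 0.9998). Phlda2 averaged 0.405 ± 0.161 CPM over 5 knockout livers and 1.02 ± 0.669 CPM over 4 wild-type livers (SD). It rested on 5 to 18 counts per knockout and 18 to 52 per wild-type liver. The wild-type median was 0.766 CPM and the highest wild-type liver held 2.01 CPM. Of 7 imprinted neighbours tested in liver, 4 had a higher and 3 a lower estimate.

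The remaining 6 genes tested had wide intervals in liver, each including 0. A log2 fold change above 0 was estimated for 2 of the 7 genes and 51.3% of all genes. The groups overlapped for all 7, and groups that did not overlap were found for 1.56% of all genes. Podxl differed by 0.07 (95% interval -18.5% to 34.3%), and its knockout livers 16 and 18, at 8.57 and 8.54 CPM, were the highest of all. Synpo differed by -0.19 and Plce1 by -0.20, each with an SE of 0.20. Wt1, with 10 to 26 counts per liver, differed by -0.21 (SE 0.34). Ptpro was low in knockout livers 14 and 15, at 0.226 and 0.201 CPM, and high in wild-type liver 20, at 1.40 CPM, with a log2 fold change of -0.40 (SE 0.51). Clic5 ranged from 0.141 CPM in knockout liver 18 to 2.14 CPM in wild-type liver 20 (-0.59, SE 0.48).

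Of the 52 genes of the 5 podocyte lists that could be tested in liver, 22 had a higher and 30 a lower estimate, and 0 passed in edgeR. Robo2, a guidance receptor gene that was on the podocyte-enriched list, differed by -0.53 (edgeR unadjusted p = 0.0387, adjusted p = 0.9998). Angptl4, a fasting-induced inhibitor of lipoprotein lipase on the injury-linked list, was at 215 ± 81.3 CPM in knockout livers (SD, n = 5) and 87.8 ± 52.2 CPM in wild-type livers (SD, n = 4; log2 fold change 1.29, edgeR unadjusted p = 0.0232, adjusted p = 0.9998), and in kidney it differed by 0.41 (unadjusted p = 0.337).

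Whether the knockout effect differed between the tissues was tested in 1 fit of all 19 libraries. For 0 of the 8 genes did the difference pass (edgeR adjusted p = 0.9999 each, over 18549 genes, of which 0% passed), and at an unadjusted p under 0.05 there were 0 of the 8 and 4.12% of all genes. DESeq2 and limma voom called 0 of the 8 as well. The effect in liver minus that in kidney was estimated at 0.52 for Cdkn1c (SE 0.30) and at -0.30 for Synpo (SE 0.19). For Clic5 it was -0.57, for Ptpro -0.50, for Plce1 -0.31, for Wt1 -0.29 and for Podxl -0.03. Nphs1 entered this fit only through its kidney counts. Its fitted difference rests on 1 read in liver and has no meaning as a size or as a test.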

How the data were processed

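Poly(A)-selected RNA of 10 kidneys and 9 livers was sequenced. The authors deposited 1 table of unnormalized whole-number counts by gene. Per the submitters' processing notes, Trim Galore, STAR, featureCounts, DESeq2 and the build GRCm38 were used, without versions; the strand setting is not given in the sources used here. Antisense and pseudogene models overlap exons of Nphs1 and Cdkn1c, and their own totals over 19 libraries were 113 counts or fewer. Identifiers were matched to GENCODE mouse release 21 (26417 of 26506), which gave symbols, positions and exon lengths.

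Each tissue was fitted on its own with edgeR 4.0.16 in R 4.3.3 (quasi-likelihood, robust, TMM, filterByExpr with a minimum count of 10; two-sided, Benjamini-Hochberg over all genes, threshold 0.05). The tissue comparisons used 1 fit of all 19 libraries. SE values derive from the F statistic and 95% intervals from its degrees of freedom. CPM are scaled within tissue by TMM unless said otherwise. Correlations used log2 CPM (prior count 2) and all 14400 arrangements within genotype. The rule named every podocyte gene, the 2 genes of each list with the smallest p in kidney (for neighbouring cell types the text gives list sums and Slc34a1), the 10 genes most like the mean, and H2afy, Alb and Umod. Lmx1b, Foxd1, Crb2, Des, Cdkn1a, Robo2, Angptl4 and Phlda2 in liver were named outside it, after their values were seen. Alternatives were other scalings and filters, DESeq2 1.42.0, limma 3.58.1 voom, a fit without mitochondrial or haemoglobin genes, both tissues in 1 fit, the title number as a block, and libraries left out. The fits were tested on simulated data. Genes and lists were chosen with earlier results of these data known. Pdpn, on one list, was not analysed here. The labels do not state in words that each library of a group is a different mouse; p-values speak only to the spread among the libraries.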

Additional observations from a re-analysis of the deposited data

Results flagged for a closer look

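Nphs1 in knockout livers was the only one of 31 combinations of gene and group in which 1 library lay apart from the rest by Dixon's criterion. Knockout liver 15 held 0.0287 CPM, a single count, and the other 4 knockout livers held 0. The nominal rate of about 1 in 20 groups does not hold here, because this criterion marks any single count among values of 0.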

How the results depend on the processing

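Over 706 recomputed values for 38 results, 684 kept their direction and side of the threshold or, for counts, stayed within 1.5 times the main count; 21 turned their sign and 1 count moved beyond that. The number of podocyte genes called was 0 in kidney, in liver and for the difference between tissues under every alternative run, and 8 between tissues, except 7 with library totals, where Plce1 did not pass. Apart from Plce1, the calls between tissues follow from the choice of podocyte markers. No gene whose sign turned passed the test in kidney, in liver or for the difference. In kidney, Clic5 (-0.01) was 0.017 with library totals, between -0.084 and 0.033 with 1 library left out (above 0 without 14, 15, 18, 22 or 24), and 0.023 without 16 and 24; Wt1 was -0.0059 without 16 and 24. In liver, Podxl (0.07) was -0.055 with limma voom, -0.080 without 16 and 24, and between -0.012 and 0.16 with 1 library left out; Synpo (-0.19) lay between -0.33 and 0.024. For the difference between tissues with 1 title number left out, Podxl (-0.03) lay between -0.10 and 0.068. Nphs1 lay between -0.17 and 1.86, values that rest on at most 1 read in liver and have no meaning as a size. Plce1 between tissues (0.69) was -0.20 with library totals. The correlation count was 0 to 2 with 1 kidney left out, 2 without kidney 23. The cause of these turns was not tested.

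Kidneys and livers share 9 title numbers, and the deviations of same-numbered libraries correlated at r = 0.05 to 0.31, with 6 of 9 correlating best with their own number, which is a hint from the data and not the design. With the number as a replicate block, Podxl's difference between tissues was 0.0080, 0 podocyte genes passed for the difference and 8 between tissues, and over all genes 0 and 13194 passed, against 0 and 13329 without the block. The fit without 16 and 24 was added for the correlations after seeing the data. Low counts limit some liver values, at library totals like those of kidney: Nphs1 had at most 1 count, and Clic5 4 to 64 counts per liver.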
